A study of Homo sapiens with 6 samples.

Results

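The genes described here encode the subunits of condensin and the SMC subunits of cohesin. They were chosen by name as the 10 rows SMC2, SMC4, NCAPD2, NCAPG, NCAPH, NCAPD3, NCAPG2, NCAPH2, SMC1A and SMC3 among 58735 genes in the expression table. The rule itself uses no measured value, but the genes were chosen with earlier results of these data known. The table came from RNA-seq of PANC-1, a human cell line derived from a pancreatic ductal adenocarcinoma. Of the 6 samples, 3 had received control siRNA (si-NC) and 3 had received siRNA against METTL16 (si-METTL16), an RNA methyltransferase that writes m6A. The samples were biological triplicates of a single cell line, the methods call the transfection stable, and another label of the control samples reads WT. Which siRNA sequence had been used for sequencing was not given in the sources used here.

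SMC proteins are long ATPases that pair into V-shaped dimers and, closed by a kleisin subunit, form rings that hold or extrude loops of DNA. In condensin the dimer is SMC2 with SMC4. It joins NCAPD2, NCAPG and NCAPH to make condensin I, or NCAPD3, NCAPG2 and NCAPH2 to make condensin II, and both complexes compact and stiffen chromosomes in mitosis. Condensin II is nuclear throughout interphase, whereas condensin I reaches chromosomes mainly after the nuclear envelope has broken down. Cohesin is built on SMC1A and SMC3, holds sister chromatids together until anaphase and shapes chromatin loops in interphase.

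All 10 genes were higher in METTL16-silenced cells than in control cells. Increases ranged from 1.26-fold for SMC3 to 2.74-fold for NCAPG2, with a median log2 fold change of 0.95 over the 10 genes and of -0.0045 over all genes tested. In edgeR's quasi-likelihood fit, with p-values adjusted by Benjamini-Hochberg and called under 0.05, 10 of 10 were higher, against 18.4% of 15089 tested genes called higher and 17.5% called lower. In each of the 10, every si-METTL16 value lay above every si-NC value, a pattern found for 25.7% of tested genes. A group of 4, NCAPG2, NCAPD2, NCAPH2 and NCAPD3, were called higher with a log2 fold change of 1 or more, as were 4.4% of tested genes. Members of a complex are not independent of each other, so these counts describe the genes and were not tested as a set.

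Total counts per sample lay between 15725298 and 18054436, so that 3 counts corresponded to between 0.166 and 0.191 CPM, the counts-per-million unit used below. The 10 genes carried between 217 and 5884 counts in any sample. Silencing was visible in METTL16 itself, which had 91.5, 96.7 and 100.6 CPM in the controls and 34.8, 33.9 and 34.9 CPM in the silenced samples. Here and below, values of single samples stand in the order of replicates 1, 2 and 3. The log2 fold change of METTL16 was -1.48 ± 0.07 (SE; edgeR adjusted p = 8.3e-05). Of 6 markers of ductal epithelium, KRT19, KRT7 and SOX9 fell in si-METTL16 cells (log2 fold changes -1.40, -0.84 and -0.25), while EPCAM (0.44), KRT18 (0.20) and KRT8 (-0.23) were not called. The summed level of the 6 was 3039 to 4108 CPM in the controls and 3266 to 3566 CPM in the silenced samples. Most of that sum was KRT8 (2139 CPM on average without and 1827 CPM with silencing) and KRT18 (1146 and 1312 CPM). It therefore says little about the other markers. Of 9 markers of acinar, endocrine, leukocyte, endothelial and stromal cells, CPA1 and GCG were at 0 counts in every sample and PRSS1, INS, PTPRC, PECAM1 and PDGFRB had at most 7 counts. COL1A1, a collagen gene of stromal cells, moved with the groups (340 CPM on average without and 818 CPM with silencing, log2 fold change 1.27), as did CD68 at a low level (5.49 and 8.75 CPM). The 9 summed to 329 to 379 CPM in the controls and 811 to 847 CPM in the silenced samples, nearly all of it COL1A1. Without COL1A1 the other 8 summed to 5.93 to 6.33 CPM in the controls and 7.79 to 9.68 CPM in the silenced samples. The part of these markers in the results below was not tested. In bulk RNA, more cells of a type or cell cycle stage and more transcript per cell cannot be told apart.

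Genes of mitosis often carry the cell cycle homology region (CHR), with the letters TTTGAA or TTCGAA, close to their start, alone or with a CCAAT box. Promoter sequence is therefore shown for the 5 condensin genes that held CHR letters before a start. RefSeq promoter windows on GRCh38.p14, covering 250 bases before to 50 bases after a start, were found for all of the 10 genes but NCAPH2 (9 genes and 13 windows, some genes having more than 1 start). Both strands were searched. The 160 bases around the upstream side of the start, from 150 bases before it to 10 bases after it, are printed 5′ to 3′ on the gene's strand, with CHR letters (TTTGAA, or TTCAAA when on the other strand) and CCAAT boxes (CCAAT, or ATTGG on the other strand) in capitals. They are chr9:104094159-104094318 on the plus strand for SMC2, chr3:160399500-160399659 plus for SMC4, chr12:6493952-6494111 plus for NCAPD2, chr4:17810829-17810988 plus for NCAPG and chr11:134223958-134224117 minus for NCAPD3.
SMC2: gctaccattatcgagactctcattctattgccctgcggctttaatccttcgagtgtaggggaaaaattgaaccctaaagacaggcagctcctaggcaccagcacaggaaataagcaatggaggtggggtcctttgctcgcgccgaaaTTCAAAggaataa
SMC4: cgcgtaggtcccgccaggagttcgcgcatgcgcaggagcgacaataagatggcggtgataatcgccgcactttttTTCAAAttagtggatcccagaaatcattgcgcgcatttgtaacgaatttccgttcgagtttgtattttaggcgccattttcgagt
NCAPD2: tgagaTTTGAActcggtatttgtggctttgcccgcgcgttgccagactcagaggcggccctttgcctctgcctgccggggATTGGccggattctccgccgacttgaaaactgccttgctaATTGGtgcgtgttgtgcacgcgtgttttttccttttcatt
NCAPG: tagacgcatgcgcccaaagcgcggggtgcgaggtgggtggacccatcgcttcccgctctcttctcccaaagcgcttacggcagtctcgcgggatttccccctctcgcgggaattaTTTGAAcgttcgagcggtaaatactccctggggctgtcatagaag
NCAPD3: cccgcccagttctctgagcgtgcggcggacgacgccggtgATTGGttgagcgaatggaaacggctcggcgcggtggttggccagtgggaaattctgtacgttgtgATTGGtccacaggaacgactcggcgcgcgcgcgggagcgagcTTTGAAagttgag

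In these letters the CHR began 3 bases before the printed start in SMC2 and in NCAPD3, 35 before it in NCAPG, 75 before it in SMC4 and 145 before it in NCAPD2. SMC2, SMC4 and NCAPD3 each had another start, not printed, whose window held neither CHR letters nor a CCAAT box. The NCAPD2 window held 4 CCAAT boxes, 70, 30, 199 and 170 bases before the start, the last 2 of which lie outside the printed stretch. The window of the printed NCAPD3 start held 2, at 110 and 45 bases. CHR letters also occurred 36 bases after the start of NCAPG2 and 151 before that of SMC3, and a CCAAT box occurred 112 bases before that of NCAPH. CHR letters were thus in 7 of 13 windows, against 16.4% of 35116 RefSeq windows of the same length. CCAAT was in 3 of 13 windows against 34.6%, and both together were in 2 of 13 against 6.38%. The E2F-type letters TTTNNCGC were in 3 of 13 windows, 1 each for NCAPG, NCAPD3 and SMC1A, against 6.89% of all windows. The NCAPG match began 22 bases before the start and overlapped neither of the other motifs. A match of letters is a description of the sequence and not a measured binding site, and no binding or methylation data entered here.

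SMC2 and SMC4 form the dimer that both condensins share. Gene spans are those of the deposited table, on GRCh38. SMC2 (chr9:104094260-104141417) was measured at 54.9, 67.8 and 57.8 CPM in si-NC samples, against 109.6, 127.5 and 117.8 CPM after silencing. The lowest silenced sample was thus well above the highest control, and the mean rose from 60.2 ± 6.79 to 118 ± 8.93 CPM (SD, n = 3), a log2 fold change of 0.98 ± 0.10 (SE; edgeR adjusted p = 5.30e-04). SMC4 (chr3:160399274-160434962) gave 182.0, 220.9 and 221.1 CPM in control samples and 334.2, 317.1 and 327.3 CPM in silenced samples. Here si-NC replicate 1 was the lowest of the 6 and the 3 silenced samples lay close together. The log2 fold change of SMC4 was 0.65 ± 0.08 (SE; edgeR adjusted p = 0.0013), the smallest among the 8 condensin genes. By rank among all tested genes, SMC2 stood at the 94.2 and SMC4 at the 88.3 percentile of log2 fold change.

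The 3 subunits particular to condensin I were higher by 1.71-fold to 2.40-fold, with a median log2 fold change of 0.93. NCAPD2, a HEAT-repeat subunit (chr12:6493356-6531955), gave 73.9, 79.4 and 74.6 CPM in control samples and 157.6, 201.5 and 186.4 CPM in silenced samples. Controls agreed closely while the silenced samples spread more (SD 3.01 and 22.3 CPM), and all silenced values were far above them. Its log2 fold change was 1.26 ± 0.10 (SE; edgeR adjusted p = 2.06e-04). NCAPG, the other HEAT-repeat subunit (chr4:17810902-17844862), gave 35.9, 41.0 and 44.7 CPM in control samples and 64.8, 72.8 and 70.8 CPM in silenced samples. The groups were apart by more than their own width, and the log2 fold change was 0.78 ± 0.10 (SE; edgeR adjusted p = 0.00126). NCAPH, the kleisin that bridges the SMC heads (chr2:96335787-96373845), gave 27.9, 29.7 and 34.9 CPM in control samples and 60.1, 59.5 and 56.2 CPM in silenced samples. Its silenced samples were nearly level, and the log2 fold change was 0.93 ± 0.10 (SE; edgeR adjusted p = 6.44e-04).

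The 3 subunits particular to condensin II were all more than doubled, with folds of 2.11 to 2.74 and a median log2 fold change of 1.11. NCAPG2 (chr7:158631311-158704829) had the largest change of the 10 genes, at the 98.2 percentile of tested genes. It was read at 38.9, 52.7 and 49.1 CPM in control samples and at 127.4, 131.6 and 127.0 CPM in silenced samples, the lowest silenced value being 2.41 times the highest control value. The mean went from 46.9 ± 7.15 to 129 ± 2.52 CPM (SD, n = 3), with a log2 fold change of 1.45 ± 0.11 (SE; edgeR adjusted p = 2.14e-04). NCAPD3, its HEAT-repeat partner (chr11:134150119-134225454), gave 62.4, 71.5 and 67.3 CPM in control samples and 140.2, 154.9 and 130.5 CPM in silenced samples. Its lowest silenced value was far above its highest control value, and the log2 fold change was 1.08 ± 0.09 (SE; edgeR adjusted p = 2.34e-04). NCAPH2, the kleisin of condensin II (chr22:50508216-50523472), was the least abundant of the 10, with 12.8, 15.9 and 14.8 CPM in control samples and 27.6, 31.6 and 34.8 CPM in silenced samples. Although it was read from only 217 to 626 counts per sample, its groups stayed apart, and the log2 fold change was 1.11 ± 0.13 (SE; edgeR adjusted p = 7.67e-04).

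**Figure D1:**
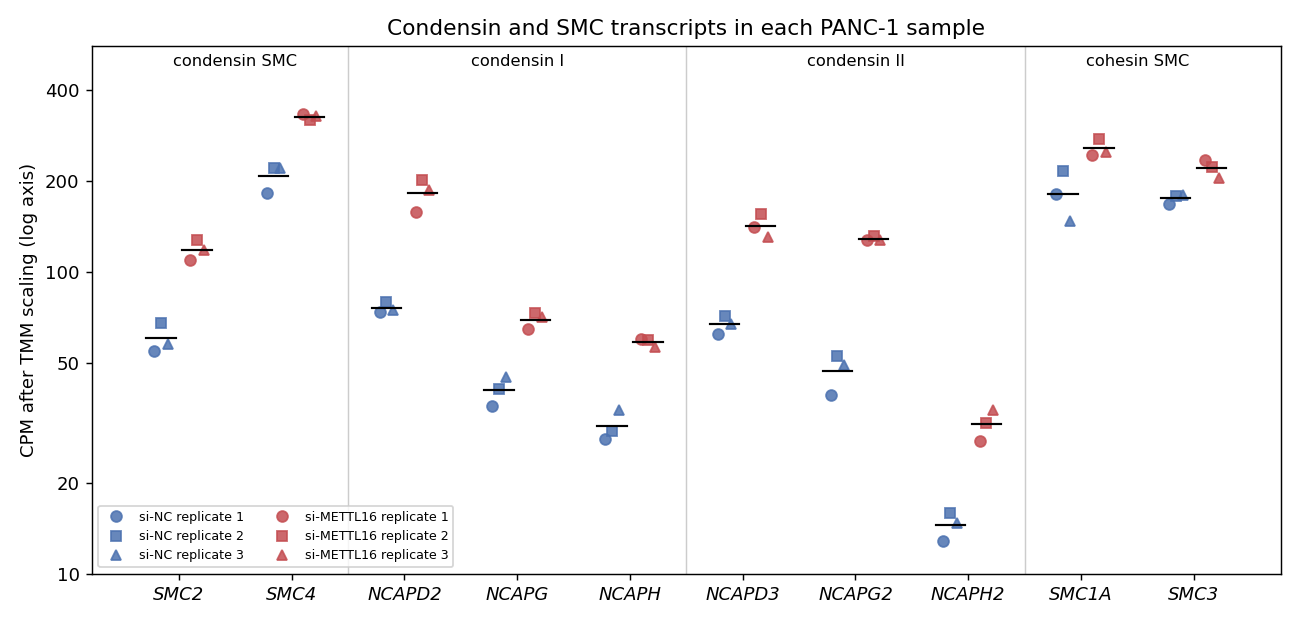
CPM after TMM scaling (log axis) for each gene in the 3 si-NC (blue) and 3 si-METTL16 (red) samples, with marker shape giving the replicate number and black lines the group means. In all 10 genes the red points lie above the blue ones, with the narrowest gaps in SMC1A and SMC3 and the widest in NCAPG2.

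The SMC subunits of cohesin were higher by less. SMC1A (chrX:53374149-53422728) gave 180.6, 216.4 and 147.5 CPM in control samples and 244.6, 275.2 and 250.3 CPM in silenced samples. Its controls were the most spread of the 10 genes in CPM, and si-NC replicate 2 came within 1.13-fold of the lowest silenced sample. The log2 fold change was 0.50 ± 0.13 (SE; edgeR adjusted p = 0.024), and the call was lost without si-NC replicate 1 (adjusted p = 0.069), without si-METTL16 replicate 2 (0.0766) and without si-METTL16 replicate 3 (0.0544). SMC3 (chr10:110567691-110604636) gave 168.2, 177.8 and 179.6 CPM in control samples and 235.2, 222.2 and 204.8 CPM in silenced samples. With tight controls, this smallest change of the 10, 0.33 ± 0.07 on the log2 scale, passed the test (SE; edgeR adjusted p = 0.00825). It kept its call with any sample left out, as did the 8 condensin genes. The median log2 fold change was 0.42 over the cohesin pair and 1.03 over the 8 condensin genes.

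**Figure D2:**
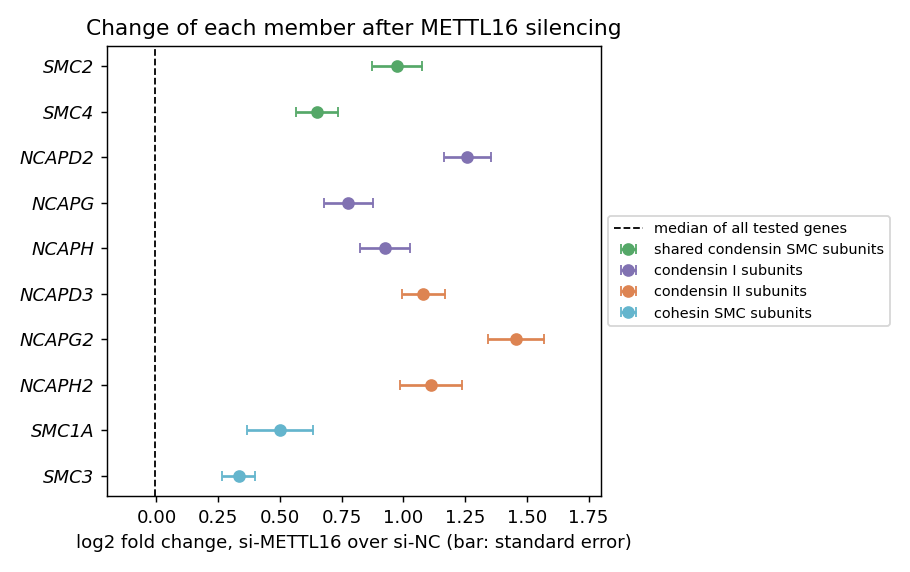
Log2 fold change of each gene, si-METTL16 over si-NC, with bars of 1 standard error and colours for the complex it belongs to. The dashed line is the median of all tested genes at -0.0045, and the 10 points run from 0.33 (SMC3) to 1.45 (NCAPG2).

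Levels were compared between genes per length, with the deposited FPKM values. In si-NC cells SMC3 was highest at 40.4 ± 1.43 FPKM, followed by SMC1A at 16.3 ± 3.08 and SMC4 at 11.5 ± 1.25 FPKM (SD, n = 3). NCAPD2 followed at 7.62 ± 0.30 FPKM. NCAPG, SMC2, NCAPD3, NCAPH and NCAPG2 formed a run from 6.46 down to 4.99 FPKM in which each overlapped the next, and NCAPH2 was lowest at 2.52 ± 0.27 FPKM. In si-METTL16 cells NCAPD2 (18.0 ± 2.27 FPKM) had drawn level with SMC4 (17.7 ± 0.43 FPKM), their samples overlapping, and NCAPG2 had moved from the ninth to the fifth place at 13.5 ± 0.28 FPKM. SMC3 at 50.2 and SMC1A at 22.7 FPKM kept the top of the order and NCAPH2 at 5.37 FPKM its end.

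This order rested on the gene lengths behind FPKM. The length implied by counts and FPKM was 18252 bases for SMC4, which is 3.57 times the 5116 bases of its MANE Select transcript, whereas the other 9 genes had 0.79 to 2.34 times theirs. Per kilobase of MANE Select transcript, a scale added after the data had been seen, SMC4 was highest in both groups, at 40.9 ± 4.45 in si-NC and 63.2 ± 1.52 in si-METTL16 cells. SMC3 followed at 31.9 ± 1.13 and 39.6 ± 2.55, and in si-METTL16 cells overlapped NCAPD2 at 37.4 ± 4.71, on the same scale. On this scale NCAPG2 took the fifth place in si-NC and the fourth in si-METTL16 cells, so its rise from the ninth place was seen only in FPKM. Changes between groups do not depend on this length, which is the same in all 6 samples.

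**Figure D3:**
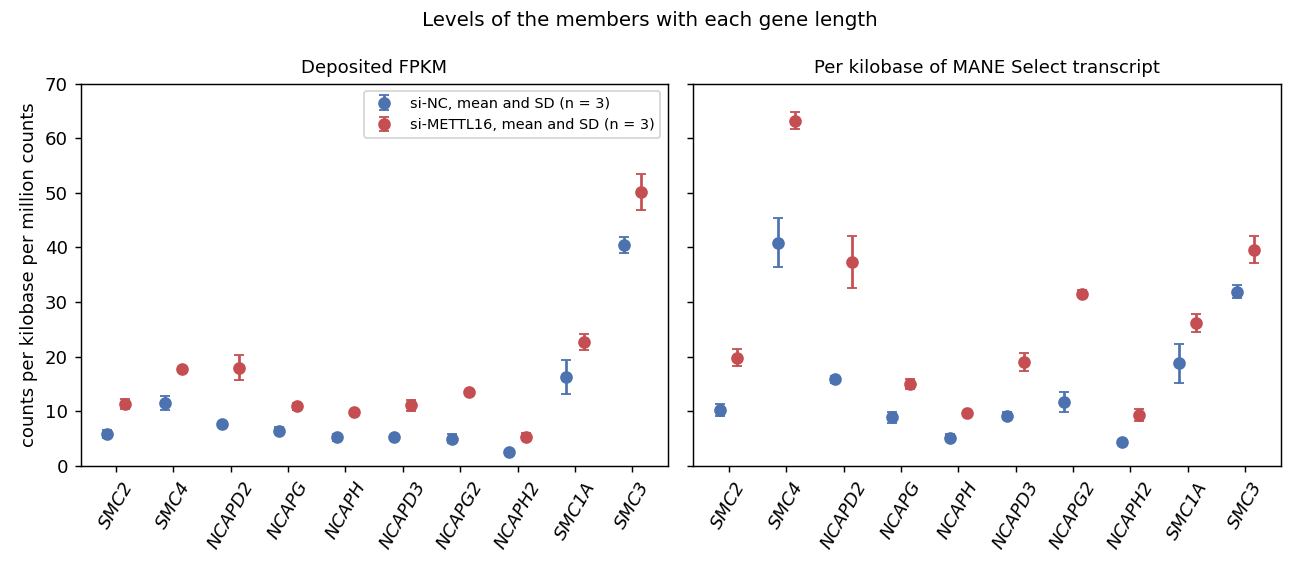
Level of each gene as mean and SD of 3 samples per group, on the deposited FPKM scale (left) and per kilobase of MANE Select transcript (right). SMC3 is highest on the left and SMC4 on the right, and each si-METTL16 mean lies above its si-NC mean on both.

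Subunits that take the same place in condensin I and condensin II were next compared as ratios within each sample. So were the SMC partners within each dimer, SMC2 with SMC4 and SMC1A with SMC3. The test was an exact two-sided permutation of 3 against 3 samples, which cannot give a p below 0.1. NCAPG over NCAPG2 was 1.38, 1.16 and 1.37 in the controls and 0.762, 0.829 and 0.836 in the silenced samples, in FPKM. The groups did not overlap, the log2 ratio differing by -0.69 (exact permutation p = 0.1, 0.25 after Benjamini-Hochberg adjustment over 5 pairs). In FPKM the ratio thus crossed 1, but per kilobase of MANE Select transcript NCAPG2 had the higher mean in both groups (11.7 and 8.89 in si-NC, 31.5 and 15.01 in si-METTL16). SMC2 over SMC4 was 0.530, 0.540 and 0.460 in si-NC and 0.577, 0.707 and 0.633 in si-METTL16 samples. Again the groups did not overlap, with a log2 difference of 0.32 (exact permutation p = 0.1, adjusted 0.25). Because of the length behind SMC4, the ratio itself was lower per kilobase of MANE Select transcript, where SMC2 and SMC4 averaged 10.2 and 40.9 in si-NC and 19.8 and 63.2 in si-METTL16 cells.

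The other 3 ratios overlapped between the groups. NCAPD2 over NCAPD3 differed by 0.17 on the log2 scale (exact permutation p = 0.2, adjusted 0.333). NCAPH over NCAPH2 differed by -0.18 and SMC1A over SMC3 by 0.18 (exact permutation p = 0.5 for each). None of the 5 passed the adjusted threshold, which 3 samples against 3 cannot reach.

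**Figure D4:**
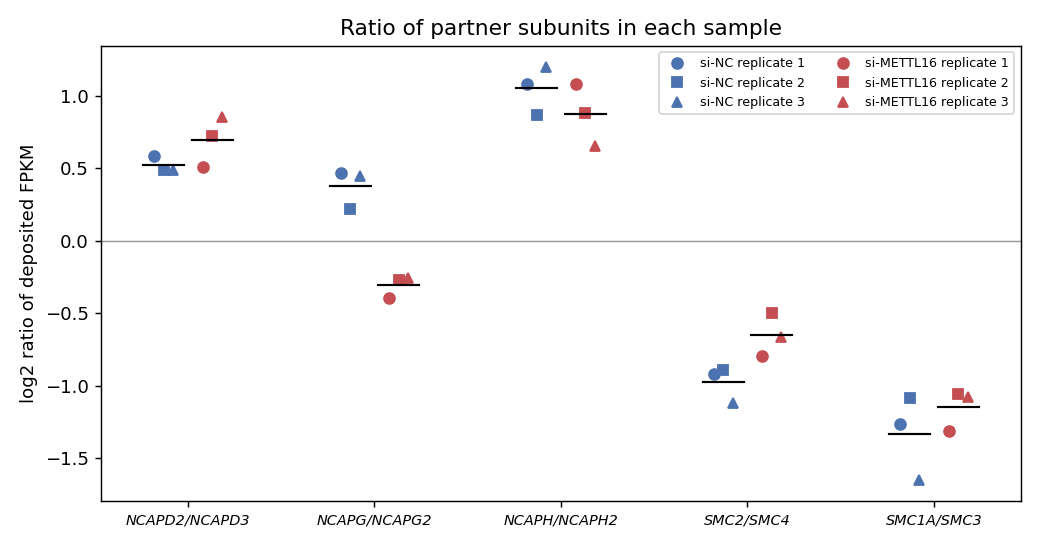
Log2 ratio of deposited FPKM for each pair of subunits in each si-NC (blue) and si-METTL16 (red) sample, with black lines for group means. NCAPG over NCAPG2 and SMC2 over SMC4 separate the groups, the other 3 ratios overlap.

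Lists of 37 further genes covered cohesin subunits and regulators, mitotic partners of condensin, the SMC5/6 complex and SMC-related or architectural genes. Of these, 36 could be tested, with a median log2 fold change of 0.39. Among the 36, 20 were called higher, 1 lower and 15 not called. Over all tested genes 18.4% were called higher and 17.5% lower, the background for each of the lists below. Among the kleisin and STAG subunits that complete the cohesin ring, RAD21 was higher at 351 ± 13.6 CPM in controls and 430 ± 24.0 CPM in silenced cells (log2 fold change 0.29, edgeR adjusted p = 0.00933). STAG1 was lower, at 96.4 ± 5.75 and 76.0 ± 7.37 CPM (-0.34, edgeR adjusted p = 0.0228). That call was lost without si-NC replicate 1 (adjusted p = 0.0681) and without si-METTL16 replicate 2 (0.0526). STAG2 was not called (0.18, edgeR adjusted p = 0.262). The core of mitotic cohesin thus held 3 subunits called higher (SMC1A, SMC3 and RAD21), 1 called lower and 1 not called, whereas all 8 condensin genes were higher.

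Among 9 genes that load, release or acetylate cohesin, 4 were called higher and 5 were not called, with a median log2 fold change of 0.13. CDCA5 (sororin), which keeps cohesin on replicated chromatin, was the highest of them. It was read at 31.4, 41.0 and 34.4 CPM in control samples and at 134.7, 142.3 and 145.9 CPM in silenced samples. That amounted to 3.96-fold, more than for any of the 10 condensin and SMC genes (log2 fold change 1.99, edgeR adjusted p = 9.2e-05). ESCO2, the acetyltransferase of S phase, and PDS5A were also higher (1.27 and 0.45). The loader NIPBL was the least changed of those called (0.17, edgeR adjusted p = 0.0361), a call lost with any of the 6 samples left out (adjusted p from 0.0645 to 0.115). MAU2, WAPL, PDS5B, ESCO1 and HDAC8 were not called, although ESCO1 was called lower without si-NC replicate 2 (edgeR adjusted p = 0.0271).

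All 4 genes of cohesin cleavage and protection were called higher, with a median log2 fold change of 1.41. They were separase (ESPL1), its inhibitor securin (PTTG1) and the shugoshins SGO1 and SGO2, from 0.99 for SGO1 to 1.57 for PTTG1. Of 6 partners of condensin on mitotic chromosomes, 5 were called higher, from 0.61 for the kinase PLK1 to 1.58 for AURKB, with TOP2A, KIF4A and CDK1 between them and a median of 1.18. MCPH1, which restrains condensin II before mitosis, was not called, at 13.7 ± 0.76 CPM in controls and 13.7 ± 1.44 CPM in silenced cells (-0.01, edgeR adjusted p = 0.969).

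The SMC5/6 complex, the SMC family member of DNA repair, had 4 of 9 genes called higher and a median log2 fold change of 0.31. SLF1 was the highest called (0.93) and SMC6 the lowest (0.33, edgeR adjusted p = 0.038). The SMC6 call held without si-NC replicate 3 and was lost with any other sample left out (adjusted p from 0.0562 to 0.12). SMC5 (0.51) and NSMCE3 (0.57) were the other two, and NSMCE1, NSMCE2, NSMCE4A, EID3 and SLF2 were not called. Of 4 meiotic cohesin subunits, SMC1B was too low to test and the other 3 had at most 1.61 CPM in any sample. STAG3 was called higher (1.36, edgeR adjusted p = 0.0236), but in the fits that left out a sample it kept the call only without si-NC replicate 2 (adjusted p from 0.0494 to 0.0856). RAD21L1 (2.11, edgeR adjusted p = 0.0502) and REC8 (0.59, edgeR adjusted p = 0.227) were not called, although RAD21L1 was called higher without si-NC replicate 3 (0.0472). The SMC-related SMCHD1 was called higher (0.25, edgeR adjusted p = 0.0139), a call lost without si-NC replicate 3 (0.062), and CTCF, which halts loop extrusion by cohesin, was not (0.19, edgeR adjusted p = 0.193).

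**Figure D5:**
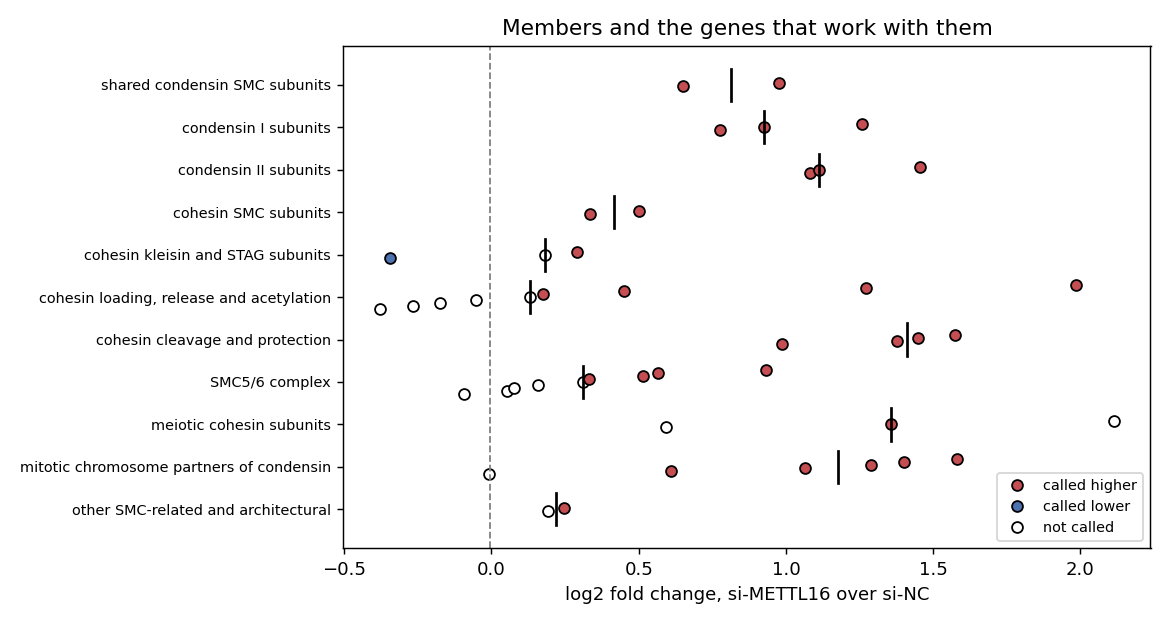
Log2 fold change, si-METTL16 over si-NC, of the 10 condensin and SMC genes (upper 4 lines) and of 36 genes of the further lists. Short black bars give the median of each list and the dashed line the median of all tested genes. Filled red points were called higher, the blue point (STAG1) lower and open points were not called.

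The genes whose values ran most like the condensin genes were sought among 9993 other genes with a mean of at least 10 CPM. Likeness was the root mean square difference over the 6 samples between a gene's log2 CPM and the mean log2 CPM of the 8 condensin genes, both centred on their si-NC mean. That condensin mean was -0.15, 0.09 and 0.06 in si-NC and 0.96, 1.09 and 1.03 in si-METTL16 samples. CENPF, a kinetochore protein, was closest at 0.0355, with means of 205 CPM without and 427 CPM with silencing. Next came NUP205, a nuclear pore scaffold (0.0456), ALYREF, an mRNA export adaptor (0.0547), TUBA1B, an alpha-tubulin (0.0561), and C9orf78 (0.0563). Their log2 fold changes, from 0.97 to 1.07, follow from the way they were chosen.

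Some of the 10 genes share sequence with neighbours on the opposite strand, and whether strand was used in counting was not given in the sources used here. By the deposited spans on GRCh38, SMC4 overlaps TRIM59 by 2518 bases and IFT80 by 607, and AC079594.2, with 0 to 73 counts, covers its whole length. NCAPG overlaps LCORL by 3664 bases, NCAPD3 overlaps JAM3 by 1883 and VPS26B by 810, NCAPD2 overlaps MRPL51 by 486 and SMC1A overlaps RIBC1 by 39. The values of these 5 genes are therefore uncertain to the extent of reads from there. Other genes that overlap these 5, some of them on the same strand, had at most 7 counts in any sample. The longest of these overlaps was that of AP001775.2 with NCAPD3, 7343 bases at 0 counts. Within the deposited gene spans SMC2, NCAPH, NCAPG2, NCAPH2 and SMC3 overlapped no other gene, and 4 pseudogene copies of NCAPD2, NCAPG and SMC4 together had 5 counts over the 6 samples.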

How the data were processed

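RNA-seq of PANC-1 cells treated with si-NC or si-METTL16 (3 samples each) was used, with groups and replicate numbers taken from the sample titles. Raw gene counts were deposited by the authors, with FPKM values that the authors made from them by dividing by gene length and total count. The submitters' processing notes name HISAT2 2.0.4, StringTie 1.3.0 and GRCh38. The kit made mRNA libraries, and strand use was not given in the sources used here. In the table, 27 gene symbols that had become dates were restored from gene identifiers.

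Counts were filtered with filterByExpr (minimum count 10, minimum total 15; 15089 genes kept, among them all 10 members), scaled by TMM (factors 0.987 to 1.008) and compared by the quasi-likelihood test of edgeR 4.0.16 (glmQLFit, then glmQLFTest; R 4.3.3), Benjamini-Hochberg adjusted over all tested genes. The common biological coefficient of variation was 16.5%. CPM values were computed from TMM-scaled totals, and standard errors from each fold change and F statistic. Ratios of FPKM were compared by exact permutation. Alternatives used limma 3.58.1 and DESeq2 1.42.0. The quasi-likelihood fit was tested on simulated counts, with pass criteria that were replaced after the first criterion had not been met; the fit was left as it was.

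The members and lists were chosen with earlier results of these data known. Every member was named, with METTL16, the highest and lowest called gene of each list, the uncalled genes of lists of at most 4 tested genes, and the 5 genes most like condensin. Other list genes were named, after their values were seen, where a count was 5 or fewer. Promoters came from RefSeq (GRCh38.p14), gene spans and their overlaps from the deposited table, and transcript lengths and strands from GENCODE 44.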

Additional observations from a re-analysis of the deposited data

How the results depend on the processing

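With 3 samples per group, p-values rest on the spread between few samples of a single cell line, and depth limits mainly the meiotic cohesin genes. The 10 condensin and SMC genes were higher under all 17 alternatives run, and 9 of them were called in every one. SMC1A was called in 12 of 17, its log2 fold change ranging from 0.37 to 0.64. Apart from the 3 samples named in the report, its call was lost with limma on log2(FPKM + 1) without a filter (0.47, adjusted p = 0.0881) and at a threshold of 0.01. That stricter threshold lowered the genes called among all tested from 5418 to 3035, a change that follows from the threshold itself. Scaling by total counts alone moved the median of all genes by -0.02 on the log2 scale, more than any other scaling tried.

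With the replicate number as a block, 5013 genes were called, 4731 of them shared with the unblocked fit, and the 10 condensin and SMC genes stayed higher, while NIPBL, SMC6 and STAG3 lost their calls (adjusted p = 0.0672, 0.0689 and 0.0577). Deviations of same-numbered samples correlated only at 0.0253 to 0.0371, although each sample correlated best with its own number (-0.0388 to 0.0083 for the others), and the sources do not say that a number marks a shared culture or day. Per kilobase of MANE Select transcript, an alternative chosen after seeing the data, 17 of 20 group levels moved by more than the spread between replicates, as given in the report.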
